A study of Sus scrofa with 14 samples.

Results

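Outer zone and inner zone tissue of the porcine medial meniscus were compared in 6 of the 14 RNA sequencing libraries of a study of knee tissue. The 6 were chosen by their labels alone and comprised outer zone explants (n = 3, numbered 2, 3 and 6) and inner zone explants (n = 3, numbered 2, 3 and 5). The other 8 libraries were cells grown to passage 3 (P3) from the outer zone (n = 2) and the inner zone (n = 3), and full thickness femoral cartilage (n = 3). Menisci came from skeletally mature female pigs of 2 to 3 years, with no transgene or treatment, and each library was 1 punched explant kept for 3 days in serum-containing culture medium before its RNA was taken. All libraries were made from polyadenylated RNA. The tissue came from 3 menisci that each gave an explant of either zone, so the zones share menisci, but which libraries belong together is not given in the sources used here and the zones were fitted as unpaired. The passaged cells were not matched to the tissue by donor. P-values rest on a spread estimated over the groups of all 14 libraries and treat explants as independent, although the zones share menisci. An explant holds every cell type of its punch, and zones were taken by position, with the inner cut the wider.

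The meniscus is a wedge of fibrocartilage between femur and tibia. Its outer border, at the joint capsule, is fibrous, is rich in type I collagen and is reached by blood vessels, whereas its inner edge is compressed between the bones, lacks vessels and holds more of the type II collagen and aggrecan of hyaline cartilage. Vessels are lined by endothelial cells, wrapped by mural cells (pericytes and smooth muscle), and separated from the tissue by a basement membrane of type IV collagen, laminins and nidogen. The zones are compared here for the genes that carry this contrast.

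Levels are given as reads per 1e+06 reads on genes (CPM) after TMM scaling, which corrects each library total for its composition. A difference is a log2 fold change of outer over inner tissue with its standard error (SE), from edgeR's quasi-likelihood F test with all 14 libraries in a single model. A gene is called at a Benjamini and Hochberg adjusted p under 0.01 with a log2 fold change over 1 in size. Reads counted on genes were 24440213 to 37270933 in the outer libraries and 28541587 to 32444350 in the inner ones, and 3 reads correspond to 0.0724 to 0.122 CPM in a single outer library and 0.0910 to 0.105 CPM in a single inner one. Summed reads of the 13 genes encoded by mitochondria were 16270.0 to 19936 CPM in outer and 18886 to 20466 CPM in inner libraries.

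A pair of libraries stood apart from the rest of their zone. Outer replicate 2 lay close to the inner libraries for genes of vessels and blood-derived cells, and inner replicate 3 lay close to outer replicates 3 and 6 for genes of cartilage matrix. Over 22 endothelial markers (the listed endothelial genes tested other than ERG, which cartilage cells also express), the summed level was 26.8 CPM in outer replicate 2, 911 CPM in outer replicate 3 and 357 CPM in outer replicate 6, against 12.3 to 21.1 CPM in the inner libraries. The 22 tested genes of chondrocytes and cartilage matrix summed to 25488, 16367 and 9576 CPM in outer replicates 2, 3 and 6, against 43381, 19020.0 and 57227 CPM in inner replicates 2, 3 and 5. Counts of calls are therefore given with and without outer replicate 2. Those on cartilage genes, and some on other genes, are also given without inner replicate 3. Both libraries were singled out with their values known, so calls made without them are descriptions of the remaining libraries and no independent support. The authors state that meniscus samples overlapping between zones in their principal component analysis came from nearer the horns, the ends of the meniscus. Their other meniscus samples came from nearer its middle. Which libraries were nearer the horns is not given in the sources used here. Site along the meniscus therefore differed among the tissue libraries, and its part in the results was not tested.

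With all 6 libraries, 5 of 15707 genes tested (0.0318%) were called, all higher in outer tissue, and 0 were called lower. These were COL1A1, C2, CRABP1, PCSK1N and SLC15A3. Without adjustment 3181 genes had a p under 0.05. At an adjusted p under 0.05 with the same fold, edgeR gave 105 genes (0.668%), 101 higher (0.643%) and 4 lower (0.0255%) in outer tissue. DESeq2 called 353 (2.25%), of which 322 were higher (2.05%) and 31 lower (0.197%). Levels did not overlap between the zones for 1365 genes higher in outer tissue (8.69%) and 1296 lower (8.25%). Without outer replicate 2 edgeR called 363 of 15658 genes (2.32%), 343 higher (2.19%) and 20 lower (0.128%) in outer tissue, and all 5 of the first genes were among them. That count rests on a spread estimated over all groups of the study: a model of the remaining 5 tissue libraries alone called 5 genes, and the model of the 6 tissue libraries alone called 0.

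**Figure D1:**
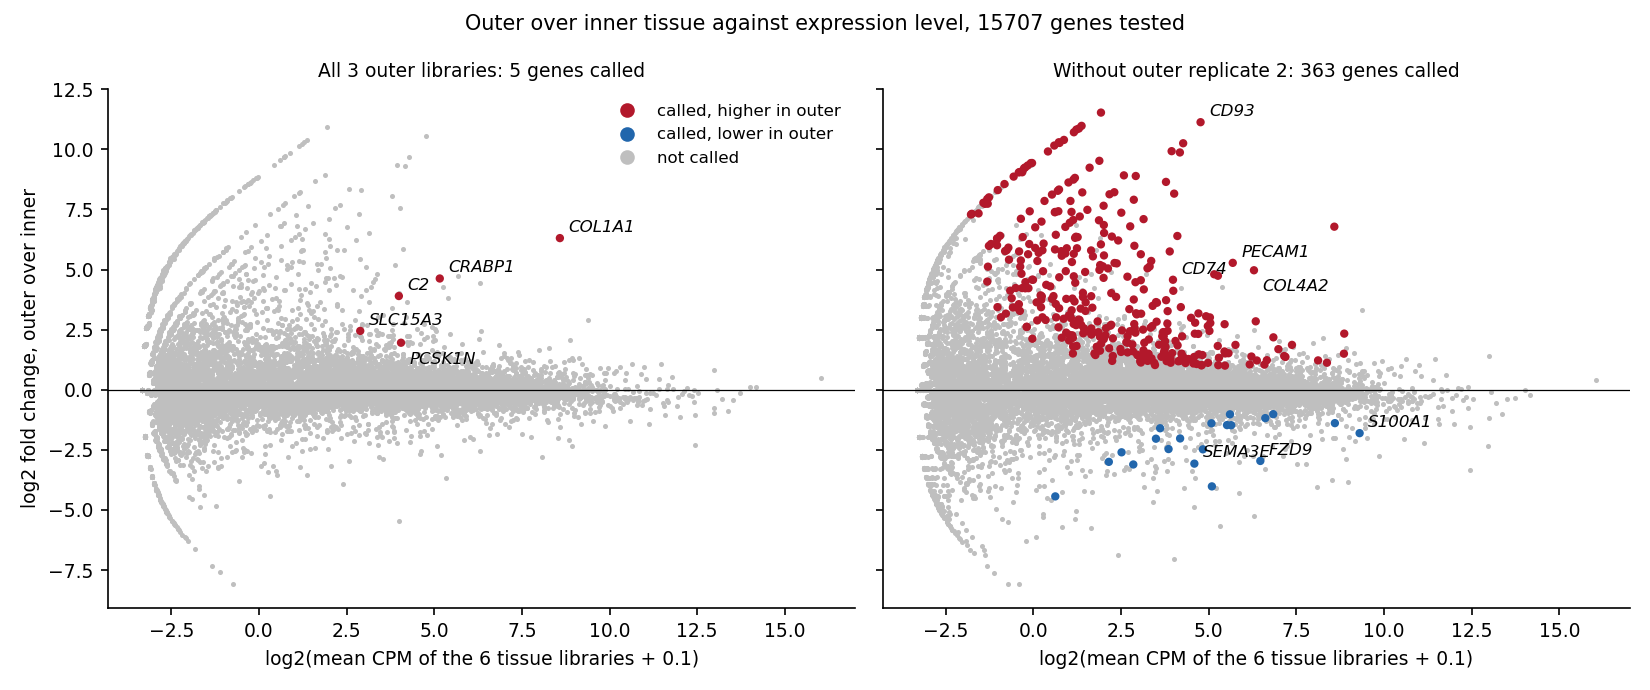
Log2 fold change of outer over inner tissue against the log2 mean level of each gene, with all libraries (left) and without outer replicate 2 (right). Each point is a gene, red and blue points are called higher and lower in outer tissue, and the curved upper and lower edges hold genes without reads in 1 zone. The called genes number 5 on the left and 363 on the right, 343 of them above 0.

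Of the 5 called genes, COL1A1 encodes the alpha 1 chain of type I collagen, the main fibril of fibrous tissue. COL1A1 stood at 165, 674 and 1433 CPM in outer replicates 2, 3 and 6, against 4.88, 6.52 and 17.3 CPM in inner replicates 2, 3 and 5. The lowest outer library was above the highest inner one, and the log2 fold change was 6.31 ± 0.78 (SE, adjusted p = 0.00868). The gene lies on chromosome 12, from 26379087 to 26397180 on Sscrofa11.1.

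C2 encodes a serine protease of the complement cascade and stood at 19.9, 30.7 and 38.2 CPM in the outer libraries, against 1.24, 3.05 and 1.70 CPM in the inner ones. Its log2 fold change was 3.90 ± 0.39 (SE, adjusted p = 0.00318). CRABP1, a cytoplasmic binding protein for retinoic acid, stood at 50.6, 45.8 and 109 CPM in outer and at 2.41, 1.61 and 4.25 CPM in inner libraries, and its log2 fold change was 4.63 ± 0.58 (SE, adjusted p = 0.00868). For both genes outer replicate 2 lay with the other outer libraries.

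SLC15A3, a transporter of histidine and small peptides in lysosomes, stood at 10.6, 13.9 and 12.6 CPM in the outer libraries, against 1.496, 2.14 and 3.16 CPM in the inner ones (log2 fold change 2.45 ± 0.29, SE, adjusted p = 0.00868). PCSK1N, an inhibitor of a prohormone convertase, stood at 23.5, 21.8 and 33.4 CPM in outer libraries, against 6.41, 8.97 and 4.95 CPM in inner ones (log2 fold change 1.96 ± 0.25, SE, adjusted p = 0.00868). Zones did not overlap for any of the 5 genes, and the outer libraries were within 2-fold of each other for SLC15A3, PCSK1N and C2. The calls depended on single libraries: leaving out outer replicate 3, outer replicate 6, inner replicate 2 or inner replicate 5 left 0 genes called, and without inner replicate 3 there were 7, of which C2 and PCSK1N were among the 5. Without inner replicate 3 the log2 fold change of COL1A1 was 6.09 (adjusted p = 0.0135), that of CRABP1 4.36 (adjusted p = 0.0135) and that of SLC15A3 2.41 (adjusted p = 0.0125).

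Several genes that missed the threshold shared this layout. PIEZO2, a mechanically gated ion channel, stood at 8.67, 13.4 and 11.09 CPM in outer libraries, against 2.05, 2.45 and 2.28 CPM in inner ones (adjusted p = 0.013). COL8A1, a short-chain network collagen, stood at 21.7, 24.5 and 16.6 CPM in outer libraries, against 1.92, 5.57 and 5.70 CPM in inner ones (adjusted p = 0.0305). AEBP1, a secreted collagen-binding protein, stood at 454, 1007 and 799.8 CPM in outer libraries, against 135, 257 and 146 CPM in inner ones (adjusted p = 0.0305). In each of these 3 genes every outer library was above every inner one, and each was called without outer replicate 2.

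Most endothelial genes were called once outer replicate 2 was left out. Of 25 listed genes 23 were tested, and 18 of the 23 were called higher in outer tissue without that library, beside 2.19% of all genes. That library was set apart with its low level of these genes known. Leaving it out therefore widens their difference by construction, and calls or p-values without it are no test of these genes. Calls without it in the mural, vascular signal, myeloid and class II lists below are likewise descriptions. With all libraries 0 of the 23 were called, and 21 had an unadjusted p under 0.05 with a higher outer level, beside 1972 of all 15707 genes. Of the 23, 8 were higher without overlap between the zones (8.69% of all genes), and DESeq2 called 14 higher (2.05% of all genes). Their median log2 fold change was 5.80 with all libraries (5.77 with the 3 genes without inner reads at their lower bound) and 6.37 without outer replicate 2, where all genes had medians of 0.01 and 0. In bulk tissue fewer cells of a type and less RNA per cell cannot be told apart.

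The receptors for vascular growth factors were among them. KDR, the main receptor for VEGFA on endothelial cells, stood at 0.445, 64.7 and 16.6 CPM in outer replicates 2, 3 and 6, against 0.130, 0.105 and 0.0607 CPM in inner replicates 2, 3 and 5. Its log2 fold change was 8.64 ± 0.82 without outer replicate 2 (SE, adjusted p = 0.000408) and 8.07 ± 1.56 with it (adjusted p = 0.0473). FLT1, which binds VEGFA as a decoy, stood at 2.02, 34.8 and 11.9 CPM in outer libraries, against 2.50, 0.455 and 0.910 CPM in inner ones, so that outer replicate 2 fell within the inner range. TEK, the angiopoietin receptor, had 454 reads in outer and 3 reads in inner libraries, a ratio of 138 with a 95% interval of 46.9 to 671 for counting error only.

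Junction and surface proteins had the same layout. CDH5, the cadherin of endothelial junctions, stood at 0.324, 56.0 and 35.3 CPM in outer libraries, against 0.0325, 0.0350 and 0.0607 CPM in inner ones. PLVAP, which forms the diaphragms of fenestrated capillaries, stood at 0.567, 86.4 and 28.3 CPM in outer libraries, against 0.0325, 0.0350 and 0.0607 CPM in inner ones. VWF, the clotting factor stored in endothelial cells, stood at 0, 82.3 and 25.7 CPM in outer libraries, against 0, 0.0350 and 0.121 CPM in inner ones. Outer replicates 3 and 6 were high in all 3 genes, and outer replicate 2 was far below them. It was still above every inner library for CDH5 and PLVAP, while VWF had no reads in it. Adjusted p was 0.00011 for CDH5, 4.91e-05 for PLVAP and 6.16e-05 for VWF without outer replicate 2, and 0.06, 0.0305 and 0.0426 with it.

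CD34, a surface sialomucin of endothelial and progenitor cells, stood at 0.931, 61.5 and 23.6 CPM in outer libraries, against 0.650, 0.666 and 1.03 CPM in inner ones (adjusted p = 0.00011 without outer replicate 2 and 0.044 with it). CD93, a surface lectin of endothelial and myeloid cells, had 6015 reads in outer and 3 reads in inner libraries (ratio 1826, 95% interval 625 to 8857). ADGRL4, an adhesion receptor of endothelial cells, had 558 reads in outer and 0 reads in inner libraries, which is at least 169-fold higher when 3 counts over the inner group are assumed. None of the ADGRL4 reads came from outer replicate 2.

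Transcription factors of the list were divided. SOX18, an endothelial factor of the SOX family, stood at 0.810, 38.7 and 14.8 CPM in outer libraries, against 0.976, 0.736 and 0.698 CPM in inner ones, and was called without outer replicate 2 (log2 fold change 5.05 ± 0.68, SE, adjusted p = 0.00121). SOX17, named after its values were seen, reached at most 1.51 CPM in any library and was not called with or without outer replicate 2. ERG, an ETS factor of endothelium that articular cartilage also expresses, stood at 123, 113 and 119 CPM in outer libraries, against 161, 95.5 and 92.8 CPM in inner ones. ERG levels overlapped between the zones (log2 fold change 0.02 ± 0.21, SE, adjusted p = 0.975).

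ETS factors bind a GGAA core, and smooth muscle genes are known for CArG boxes that bind serum response factor. The 300 bases before the gene start of RefSeq genes on Sscrofa11.1 were searched on both strands. The search was for AGGAAG in the endothelial list and for the CArG box in the mural list. AGGAAG was found before 7 of 24 endothelial genes (29.2%) and before 5 of the 18 that were called without outer replicate 2 (27.8%), beside 5737 of all 19534 promoters read (29.4%). A CArG box was found before 2 of 22 mural genes (9.09%), MYL9 and TAGLN, beside 311 of all promoters (1.59%). Of the 9 mural genes called without outer replicate 2, 1 held a CArG box (MYL9), and TAGLN was not called. The promoters shown are the one with the most AGGAAG copies in the endothelial list (ICAM2) and the one of the called mural genes with a CArG box (MYL9), each read 5′ to 3′ on the plus strand and ending at the base before the gene start. Capitals mark the matches, at chr12:14986336-14986635 for ICAM2 and chr17:39787865-39788164 for MYL9.
ICAM2: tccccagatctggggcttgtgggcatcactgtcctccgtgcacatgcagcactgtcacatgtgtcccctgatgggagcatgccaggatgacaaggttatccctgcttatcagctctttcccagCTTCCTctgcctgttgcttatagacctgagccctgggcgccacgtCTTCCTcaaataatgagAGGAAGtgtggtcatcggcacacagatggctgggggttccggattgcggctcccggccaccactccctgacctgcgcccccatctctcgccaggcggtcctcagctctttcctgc
MYL9: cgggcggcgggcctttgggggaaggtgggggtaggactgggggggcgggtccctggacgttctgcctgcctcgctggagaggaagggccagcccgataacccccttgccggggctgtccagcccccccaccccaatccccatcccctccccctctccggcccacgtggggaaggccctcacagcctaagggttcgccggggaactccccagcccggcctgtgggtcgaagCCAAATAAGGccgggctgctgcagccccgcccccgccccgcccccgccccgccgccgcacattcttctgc

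ICAM2, an adhesion molecule of endothelial junctions whose promoter holds 3 matches, stood at 0.121, 15.4 and 7.74 CPM in outer libraries, against 0, 0.0701 and 0.212 CPM in inner ones, and was called without outer replicate 2 (adjusted p = 0.0025). MYL9, the regulatory light chain of smooth muscle myosin, stood at 0.972, 10.5 and 3.98 CPM in outer libraries, against 0.163, 0.210 and 0.334 CPM in inner ones, and its zones did not overlap (log2 fold change 4.90 ± 0.52 without outer replicate 2, SE, adjusted p = 0.000327). TAGLN, an actin-binding protein of smooth muscle named after its values were seen, stood at 19.5, 71.4 and 34.0 CPM in outer libraries, against 22.4, 11.5 and 22.7 CPM in inner ones. Its zones overlapped, and it was not called with or without outer replicate 2.

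Of 22 listed genes of mural cells and smooth muscle 21 were tested, and 9 were called higher in outer tissue without outer replicate 2 (2.19% of all genes), 0 with it and 7 by DESeq2 (2.05% of all genes). The 21 genes summed to 1477, 1567 and 1211 CPM in outer replicates 2, 3 and 6, against 1902, 1053 and 1860 CPM in inner replicates 2, 3 and 5, so that the sums overlapped. MCAM, an adhesion molecule of pericytes and endothelium, stood at 0.486, 71.1 and 24.4 CPM in outer libraries, against 0, 0.350 and 0.152 CPM in inner ones. ACTA2, the actin of smooth muscle and myofibroblasts, stood at 2.88, 35.6 and 18.4 CPM in outer libraries, against 0.0650, 1.54 and 0.728 CPM in inner ones. MYH11, the heavy chain of smooth muscle myosin, stood at 1.01, 43.7 and 3.50 CPM in outer libraries, against 0.0976, 0.350 and 0.941 CPM in inner ones. In these 3 genes outer replicate 2 was the lowest of its zone and still above every inner library. Adjusted p was 0.00011 for MCAM, 0.000973 for ACTA2 and 0.009 for MYH11 without outer replicate 2, and 0.0372, 0.0387 and 0.0738 with it.

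The subunits of the nitric oxide receptor guanylate cyclase, GUCY1A3 and GUCY1B3, shared this order. GUCY1B3 stood at 0.405, 7.36 and 4.10 CPM in outer libraries, against 0.0650, 0.105 and 0.243 CPM in inner ones (adjusted p = 0.00011 without outer replicate 2 and 0.0357 with it). GUCY1A3 had 336 reads in outer and 2 reads in inner libraries (ratio 153, 95% interval 42.0 to 1269). PDGFRB, the pericyte receptor for PDGFB, stood at 309.5, 501 and 493 CPM in outer libraries, against 202, 303 and 179 CPM in inner ones, without overlap (adjusted p = 0.00878 without outer replicate 2 and 0.0697 with it). ABCC9, a channel subunit of pericytes, stood at 0.121, 12.5 and 4.12 CPM in outer libraries, against 0, 0 and 0.121 CPM in inner ones (adjusted p = 0.00241 without outer replicate 2). Levels of 2 other pericyte genes overlapped between the zones. CSPG4 stood at 746, 416 and 264 CPM in outer libraries, against 983, 466 and 1323 CPM in inner ones. RGS5, a regulator of G protein signalling in pericytes, stood at 134, 66.3 and 18.7 CPM in outer libraries, against 404, 9.42 and 81.5 CPM in inner ones.

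**Figure D2:**
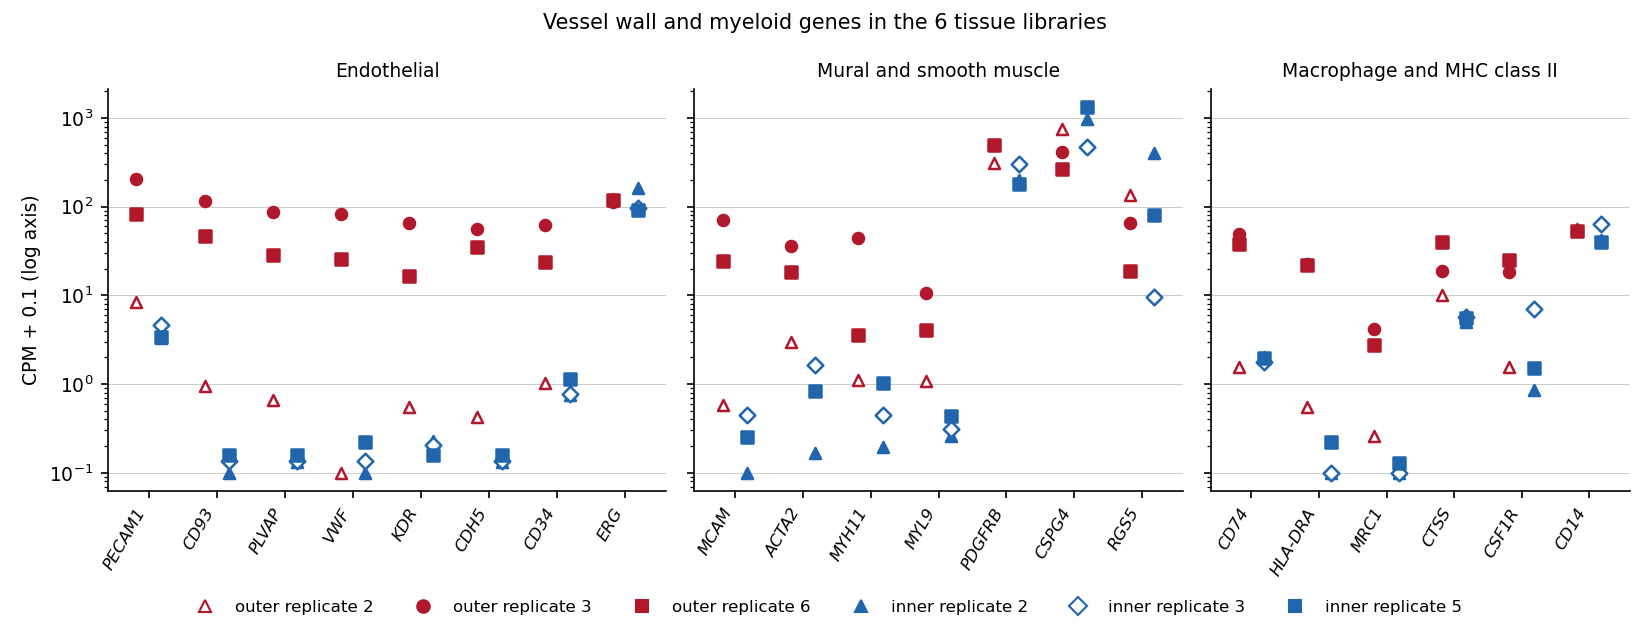
Levels of endothelial, mural and myeloid genes in each tissue library, as CPM plus 0.1 on a log axis, with outer libraries (red) left of inner libraries (blue) and open symbols for outer replicate 2 and inner replicate 3. Outer replicates 3 and 6 lie far above the inner libraries for genes such as PLVAP, at 86.4 and 28.3 CPM, while ERG, CSPG4, RGS5 and CD14 overlap between the zones.

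Signals that guide and stabilize vessels made up a further list, in which 13 of 36 tested genes were called higher (2.19% of all genes) and 1 lower (0.128% of all genes) in outer tissue without outer replicate 2, with 0 called in either direction when it was kept. DLL4, the Notch ligand of endothelial tip cells, stood at 0.243, 19.1 and 10.2 CPM in outer libraries, against 0.553, 0.280 and 0.303 CPM in inner ones. PDGFB, the ligand that recruits pericytes, had 467 reads in outer and 0 reads in inner libraries, at least 142-fold higher. CALCRL, the receptor subunit for adrenomedullin, stood at 0.324, 15.4 and 7.62 CPM in outer libraries, against 0, 0 and 0.152 CPM in inner ones. Outer replicate 2 was below every inner library for DLL4 and above every inner library for PDGFB and CALCRL.

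SEMA3E, a secreted semaphorin that repels endothelial cells through plexin D1, was the member called lower. It stood at 9.88, 6.48 and 3.40 CPM in outer libraries, against 68.9, 19.2 and 36.3 CPM in inner ones, and every outer library was below every inner one. The log2 fold change was -2.67 ± 0.51 with all libraries (SE, adjusted p = 0.0426) and -3.07 ± 0.58 without outer replicate 2 (adjusted p = 0.00867). SEMA3F and SEMA3G, semaphorins of the same class, were called higher in outer tissue without outer replicate 2. SEMA3F stood at 3.12, 27.2 and 12.9 CPM in outer libraries, against 2.05, 3.22 and 1.46 CPM in inner ones. VEGFA, the main growth factor for vessels, stood at 65.3, 57.8 and 63.3 CPM in outer libraries, against 73.6, 91.2 and 138 CPM in inner ones (log2 fold change -0.70 ± 0.35, SE, adjusted p = 0.277). Its zones did not overlap, and neither did those of ADM and APLN, which were also lower in every outer library and were named after their values were seen. APLN stood at no more than 0.091 CPM, near the level of 3 reads, where lack of overlap says little. Of the 36 genes, 8 were higher (8.69% of all genes) and 4 lower (8.25% of all genes) without overlap, the latter near the share of all genes.

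Genes of macrophages and other myeloid cells were divided. Without outer replicate 2, 10 of 23 tested genes were called higher in outer tissue (2.19% of all genes), with it 0, and the summed level of the list was 134 to 279 CPM in outer and 107 to 163 CPM in inner libraries, which overlap. MRC1, the mannose receptor of tissue macrophages, stood at 0.162, 4.06 and 2.63 CPM in outer libraries, against 0, 0 and 0.0303 CPM in inner ones, or 256 reads against 1 read (ratio 233, 95% interval 41.5 to 9244). CTSS, a lysosomal protease of antigen-presenting cells, stood at 9.92, 18.9 and 39.7 CPM in outer libraries, against 4.98, 5.61 and 5.52 CPM in inner ones. Both were above every inner library in each outer library. CD14, the lipopolysaccharide co-receptor, stood at 56.0, 53.8 and 52.8 CPM in outer libraries, against 42.4, 64.1 and 39.7 CPM in inner ones, and its zones overlapped. CSF1R, the receptor for macrophage growth factor, stood at 1.46, 18.0 and 25.1 CPM in outer libraries, against 0.748, 6.87 and 1.43 CPM in inner ones, with inner replicate 3 the highest of its zone. LYZ, the lysozyme of macrophages, had the opposite order, with 47.6, 13.4 and 6.87 CPM in outer libraries, against 89.0, 20.6 and 38.1 CPM in inner ones. Its zones overlapped (log2 fold change -1.13, adjusted p = 0.326 with all libraries), and it was called lower without outer replicate 2 and inner replicate 3 (-2.65, adjusted p = 0.00315). The libraries left out were those nearest the other zone for LYZ, so that call is a description and no test.

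Of 6 tested genes of MHC class II presentation 4 were called higher in outer tissue without outer replicate 2 (2.19% of all genes) and 0 with it. CD74, the invariant chain, stood at 1.46, 49.3 and 38.0 CPM in outer libraries, against 1.92, 1.68 and 1.88 CPM in inner ones (log2 fold change 4.57 ± 0.23 without outer replicate 2, SE, adjusted p = 1.99e-06, and 4.02 ± 0.81 with it, adjusted p = 0.0472). The class II alpha chain that the table names HLA-DRA stood at 0.445, 22.3 and 21.9 CPM in outer libraries, against 0, 0 and 0.121 CPM in inner ones. Class II genes have near-identical copies, so reads may be split among them. For CD74 outer replicate 2 was below every inner library.

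Markers of other cell types gave few calls. The 5 listed genes of red blood cells in the table had 3 reads in outer and 7 reads in inner libraries together, and 0 of 8 tested genes of lymphocytes and mast cells, 0 of 4 of lymphatic endothelium and 0 of 7 of Schwann cells and nerve were called with or without outer replicate 2. The lymphatic markers CCL21 and MMRN1 and the T cell markers CD3E and CD2 had 0 reads in all 6 libraries. The lymphocyte and mast cell list summed to 8.38, 28.8 and 19.0 CPM in outer replicates 2, 3 and 6, against 58.3, 1.05 and 8.89 CPM in inner replicates 2, 3 and 5. Most of it was KIT, the stem cell factor receptor of mast cells, at 57.3 CPM in inner replicate 2. Of 8 adipocyte genes 1 was called lower in outer tissue without outer replicate 2 (0.128% of all genes). This was CIDEC, a lipid droplet protein, with 10.4, 4.09 and 3.83 CPM in outer libraries, against 15.97, 9.28 and 23.5 CPM in inner ones. Its zones overlapped with all libraries. The summed lymphatic list was 0.688 to 3.52 CPM in outer and 0.210 to 0.607 CPM in inner libraries. The endothelial, myeloid and class II lists had their highest sums in outer replicates 3 and 6, which were also the libraries highest in many genes of basement membrane, matrix and proteases described next, and the part of these cells in those results was not tested.

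Among 19 tested genes of basement membrane 5 were called higher in outer tissue without outer replicate 2 (2.19% of all genes), with it 0, and by DESeq2 6 (2.05% of all genes). COL4A2, a chain of the type IV collagen network, stood at 14.9, 344 and 89.9 CPM in outer libraries, against 4.98, 4.52 and 11.2 CPM in inner ones. LAMC3, a laminin gamma chain, stood at 1.09, 21.7 and 6.25 CPM in outer libraries, against 0.0976, 0 and 0.0303 CPM in inner ones. NID1, which links the laminin and collagen networks, stood at 0.972, 11.9 and 9.33 CPM in outer libraries, against 0, 0.0701 and 0.789 CPM in inner ones. Every outer library was above every inner one for these 3 genes, and adjusted p with all libraries was 0.0426 for COL4A2, 0.0305 for LAMC3 and 0.0512 for NID1. HSPG2 encodes perlecan, which cartilage matrix also holds, and its levels of 127, 334 and 178 CPM in outer libraries overlapped those of 137, 185 and 224 CPM in inner ones.

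Fibrous collagens did not move as a block. Of 15 tested genes 4 were called higher in outer tissue without outer replicate 2 (2.19% of all genes), namely COL1A1, COL5A3, COL8A1 and COL12A1, and with it only COL1A1. COL1A2, the partner chain of type I collagen, stood at 2271, 1988 and 3699 CPM in outer libraries, against 1193, 898 and 2101 CPM in inner ones. Its zones overlapped (log2 fold change 0.92 ± 0.43, SE, adjusted p = 0.253). COL3A1, the type III collagen chain, stood at 3813, 2706 and 2529 CPM in outer libraries, against 4406, 2793 and 7152 CPM in inner ones (adjusted p = 0.39). COL5A3, a type V collagen chain, stood at 0.688, 17.7 and 4.63 CPM in outer libraries, against 0.358, 0.140 and 0.182 CPM in inner ones.

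Markers of capsular and synovial fibroblasts were also uneven, with 3 of 7 tested genes called higher in outer tissue without outer replicate 2, beside 2.19% of all genes (THY1, DPT and CD248) and 0 with it. DPT, a dermatopontin that binds decorin and collagen, stood at 2.02, 17.7 and 19.2 CPM in outer libraries, against 0.650, 1.82 and 1.64 CPM in inner ones. THY1, a surface glycoprotein of fibroblasts, stood at 141, 199.5 and 406 CPM in outer libraries, against 71.6, 77.9 and 99.5 CPM in inner ones. The lowest outer library was above the highest inner one in both genes. DCN, the proteoglycan that decorates collagen fibrils in both zones, stood at 3686, 4432 and 5056 CPM in outer libraries, against 4138, 5379.5 and 3989.8 CPM in inner ones.

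Proteases gave 6 calls of 38 tested genes without outer replicate 2, all higher in outer tissue (2.19% of all genes), and 0 with it. PLAU, the urokinase that activates plasminogen, stood at 3.16, 22.6 and 35.6 CPM in outer libraries, against 1.398, 3.99 and 1.76 CPM in inner ones. MMP11, a stromal metalloproteinase, stood at 1.66, 3.35 and 4.29 CPM in outer libraries, against 0.650, 0.946 and 0.759 CPM in inner ones. ADAMTS7, which cleaves cartilage oligomeric matrix protein, stood at 1.05, 24.6 and 10.3 CPM in outer libraries, against 0.195, 1.12 and 0.698 CPM in inner ones. Outer replicate 2 was above the inner libraries for MMP11 and within their range for PLAU and ADAMTS7.

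MMP2, a gelatinase, stood at 420.5, 1557 and 1544 CPM in outer libraries, against 33.0, 361 and 78.9 CPM in inner ones, with inner replicate 3 near outer replicate 2. Its log2 fold change was 2.90 ± 0.72 with all libraries (SE, adjusted p = 0.071) and 4.79 ± 0.40 without outer replicate 2 and inner replicate 3 (adjusted p = 0.000101). The libraries left out were those nearest the other zone for MMP2, so the latter value is a description and no test. MMP16, a membrane-bound metalloproteinase, had the opposite order, with 17.5, 17.3 and 10.3 CPM in outer libraries, against 60.4, 20.1 and 57.9 CPM in inner ones. Every outer library was below every inner one for MMP16 (log2 fold change -1.62 ± 0.35, SE, adjusted p = 0.0547).

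Chemokines and cytokines held 4 calls of 19 tested genes without outer replicate 2, all higher in outer tissue (2.19% of all genes), and 0 with it. CCL2, which attracts monocytes, stood at 5.63, 20.2 and 21.1 CPM in outer libraries, against 0, 1.72 and 0.941 CPM in inner ones. CXCL14 stood at 0.567, 18.7 and 20.4 CPM in outer libraries, against 0.293, 0 and 0.212 CPM in inner ones. TNFSF11, the osteoclast differentiation factor RANKL, stood at 2.35, 6.08 and 4.03 CPM in outer libraries, against 0.130, 0.0350 and 0.121 CPM in inner ones. No outer library overlapped an inner one for these 3 genes, and the TNFSF11 difference was 5.37 ± 0.92 on the log2 scale with all libraries (SE, adjusted p = 0.031). TNFRSF11B, the decoy receptor that binds RANKL, stood at 183, 93.0 and 112 CPM in outer libraries, against 391, 136 and 344 CPM in inner ones (adjusted p = 0.234). ACP5, the tartrate-resistant phosphatase of osteoclasts and macrophages, was the 1 of 8 tested osteoclast genes called higher without outer replicate 2 (2.19% of all genes). ATP6V0D2 and CALCR, which define osteoclasts, had 0 reads in all 6 libraries.

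Actin cytoskeleton genes held 11 calls of 24 tested without outer replicate 2, all higher in outer tissue (2.19% of all genes), and 0 with it. Of the 24, 13 were higher without overlap between the zones (8.69% of all genes). LIMA1, which crosslinks actin filaments, stood at 30.4, 65.5 and 74.1 CPM in outer libraries, against 14.9, 24.7 and 19.7 CPM in inner ones (adjusted p = 0.0357 with all libraries). FSCN1, the bundling protein fascin, stood at 15.03, 75.7 and 65.6 CPM in outer libraries, against 5.72, 12.9 and 6.89 CPM in inner ones. ACTB, the cytoplasmic beta actin, stood at 1204, 1561 and 1653 CPM in outer libraries, against 750.1, 1051 and 768 CPM in inner ones and was not called (adjusted p = 0.135). Outer replicate 2 was the lowest of its zone in all 3 genes.

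Interferon response genes were high in outer replicate 2. Of 19 tested genes 15 had an unadjusted p under 0.05 with a higher outer level, beside 1972 of all 15707 genes. Those higher without overlap numbered 9 (8.69% of all genes). However, 0 were called with all libraries. Only HERC5 was called without outer replicate 2 (2.19% of all genes), and DESeq2 called 5 (2.05% of all genes). HERC5, a ligase that attaches ISG15, stood at 19.97, 14.3 and 29.8 CPM in outer libraries, against 5.69, 6.45 and 4.25 CPM in inner ones. MX1, an antiviral GTPase, stood at 97.8, 48.1 and 90.5 CPM in outer libraries, against 46.6, 27.9 and 45.8 CPM in inner ones. ISG15 itself stood at 209, 37.1 and 153 CPM in outer libraries, against 91.2, 38.7 and 69.5 CPM in inner ones, with outer replicate 3 the lowest of all 6. The summed list was 963, 556 and 1066 CPM in outer replicates 2, 3 and 6, against 557 to 610 CPM in inner libraries, so that it was lowest in the outer library with the highest endothelial sum.

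On the cartilage side, 22 genes of chondrocytes and cartilage matrix were tested and 0 were called by edgeR in either direction with all libraries or without outer replicate 2. DESeq2 called 1 lower with all libraries (0.197% of all genes), CILP. Of the 22, 10 had an unadjusted p under 0.05 with a lower outer level, beside 1209 of all 15707 genes. Only 3 were lower without overlap, beside 8.25% of all genes. The median log2 fold change was -1.16 with all libraries and -2.30 without outer replicate 2. Without outer replicate 2 and inner replicate 3, 8 were called lower in outer tissue, beside 279 of 15598 genes (1.79%). In that comparison 896 genes were called in either direction (5.74%), 617 of them higher (3.96%). The pair of libraries was set apart with the sums of the 22 genes in view. Leaving it out therefore widens their difference by construction, and calls or p-values without it are no test of these genes. COL2A1, the chain of type II collagen, stood at 3858, 1449 and 399 CPM in outer libraries, against 9492, 1613 and 16762 CPM in inner ones. Its log2 fold change was -2.29 ± 0.89 with all libraries (SE, adjusted p = 0.185) and -3.83 ± 0.84 without that pair of libraries (adjusted p = 0.00998). Outer replicate 2 exceeded inner replicate 3, and both lay between the extremes.

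ACAN, which encodes aggrecan, stood at 5851, 3155 and 1983 CPM in outer libraries, against 8487, 3086 and 10880.0 CPM in inner ones. HAPLN1, the link protein that binds aggrecan to hyaluronan, stood at 2225, 814 and 589 CPM in outer libraries, against 4268, 1160.3 and 4448 CPM in inner ones. CILP, a glycoprotein of the intermediate layer of cartilage, stood at 263, 120.2 and 97.2 CPM in outer libraries, against 1139.5, 240.1 and 1051 CPM in inner ones. In all 3 genes outer replicate 2 was above outer replicates 3 and 6, and inner replicate 3 was the lowest of its zone. The sums that set that pair apart include these genes, so values without it are descriptions and no test. Without that pair of libraries the log2 fold change was -1.91 ± 0.40 for ACAN (SE, adjusted p = 0.00839), -2.63 ± 0.54 for HAPLN1 (SE, adjusted p = 0.00738) and -3.33 ± 0.40 for CILP (SE, adjusted p = 0.000452), against adjusted p of 0.251, 0.216 and 0.0652 with all libraries. COMP, a matrix protein that binds type II collagen, did not overlap between zones, with 8714, 8442 and 5199 CPM in outer libraries, against 13168, 10620.0 and 17635 CPM in inner ones, but was not called (adjusted p = 0.196, and 0.088 without that pair of libraries).

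The transcription factors of cartilage differed in how the zones were arranged. SOX6, which acts with SOX5 beside SOX9 on cartilage genes, stood at 12.7, 14.9 and 12.5 CPM in outer libraries, against 23.5, 20.4 and 24.2 CPM in inner ones. All 3 outer libraries were below all inner ones, and the log2 fold change was -0.76 ± 0.13 (SE, adjusted p = 0.0305), under the size needed for a call. SOX5 stood at 38.1, 37.1 and 26.5 CPM in outer libraries, against 78.0, 41.0 and 55.6 CPM in inner ones. SOX9 stood at 144, 70.7 and 51.9 CPM in outer libraries, against 191, 84.5 and 196 CPM in inner ones, so that outer replicate 2 lay in the inner range. Its adjusted p was 0.243 with all libraries. Without that pair of libraries it was 0.00162, which is again a description and no independent test.

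Among genes outside the matrix that were lower in every outer library, CRISPLD1, a secreted cysteine-rich protein, stood at 250.3, 149 and 119 CPM in outer libraries, against 838, 293 and 1089 CPM in inner ones. NXPH4, a neurexin ligand, stood at 12.7, 8.75 and 4.75 CPM in outer libraries, against 26.4, 21.9 and 34.1 CPM in inner ones (log2 fold change -1.66 ± 0.34, SE, adjusted p = 0.0473). ATP6V1B1, a subunit of the proton pump, stood at 1.98, 1.17 and 0.868 CPM in outer libraries, against 18.4, 3.71 and 9.07 CPM in inner ones (log2 fold change -2.97 ± 0.59, SE, adjusted p = 0.0442). BCAT1, which transfers amino groups of branched-chain amino acids, stood at 64.6, 57.0 and 55.1 CPM in outer libraries, against 102, 96.1 and 100.4 CPM in inner ones (adjusted p = 0.0442). NXPH4 was the only one of these 4 genes called without outer replicate 2.

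Growth factors and their antagonists held 4 calls of 47 tested genes without outer replicate 2, all higher in outer tissue (2.19% of all genes), and 0 with it. DESeq2 called 4 higher (2.05% of all genes) and 2 lower (0.197% of all genes) with all libraries. Without outer replicate 2 and inner replicate 3 edgeR called 5 higher (3.96% of all genes) and 8 lower (1.79% of all genes), which describes the remaining libraries and is no test. DKK3, a secreted protein of the Dickkopf family, stood at 25.6, 57.1 and 84.1 CPM in outer libraries, against 6.89, 16.9 and 7.22 CPM in inner ones, and LRP4, a receptor that binds Wnt inhibitors, at 1.498, 5.54 and 3.79 CPM in outer libraries, against 0.325, 0.140 and 0.910 CPM in inner ones. Both were higher without overlap and were called without outer replicate 2 (adjusted p = 0.00548 for DKK3 and 0.00122 for LRP4). CHRDL2, an antagonist of bone morphogenetic proteins (BMPs), stood at 1.90, 0.284 and 0.193 CPM in outer libraries, against 66.8, 1.61 and 24.8 CPM in inner ones. BMP2 stood at 115, 19.7 and 10.2 CPM in outer libraries, against 232, 37.6 and 165 CPM in inner ones. WIF1, which binds and inhibits Wnt proteins, stood at 62.6, 2.47 and 4.53 CPM in outer libraries, against 332, 2.49 and 66.8 CPM in inner ones. The zones overlapped in CHRDL2, BMP2 and WIF1, with outer replicate 2 the highest of its zone and inner replicate 3 the lowest of its own, and BMP2 and WIF1 were named after their values were seen.

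Of the 20 genes called lower in outer tissue without outer replicate 2, 5 kept non-overlapping zones when it was included. FGF2, a growth factor held in cartilage matrix, was one of the 5, with 44.5, 23.1 and 21.7 CPM in outer libraries, against 75.8, 44.6 and 65.7 CPM in inner ones (adjusted p = 0.00254 without outer replicate 2 and 0.0738 with it). FZD9, a Wnt receptor, stood at 114, 18.8 and 14.2 CPM in outer libraries, against 201, 35.6 and 149 CPM in inner ones. S100A1, a calcium-binding protein of chondrocytes and muscle, stood at 835, 312 and 162 CPM in outer libraries, against 1048, 518 and 917 CPM in inner ones. NKX3-2, a repressor that acts in chondrocyte development, stood at 5.35, 1.25 and 0.362 CPM in outer libraries, against 10.3, 2.66 and 6.16 CPM in inner ones. Outer replicate 2 lay within the inner range in the last 3 genes, and all 4 were named after their values were seen.

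**Figure D3:**
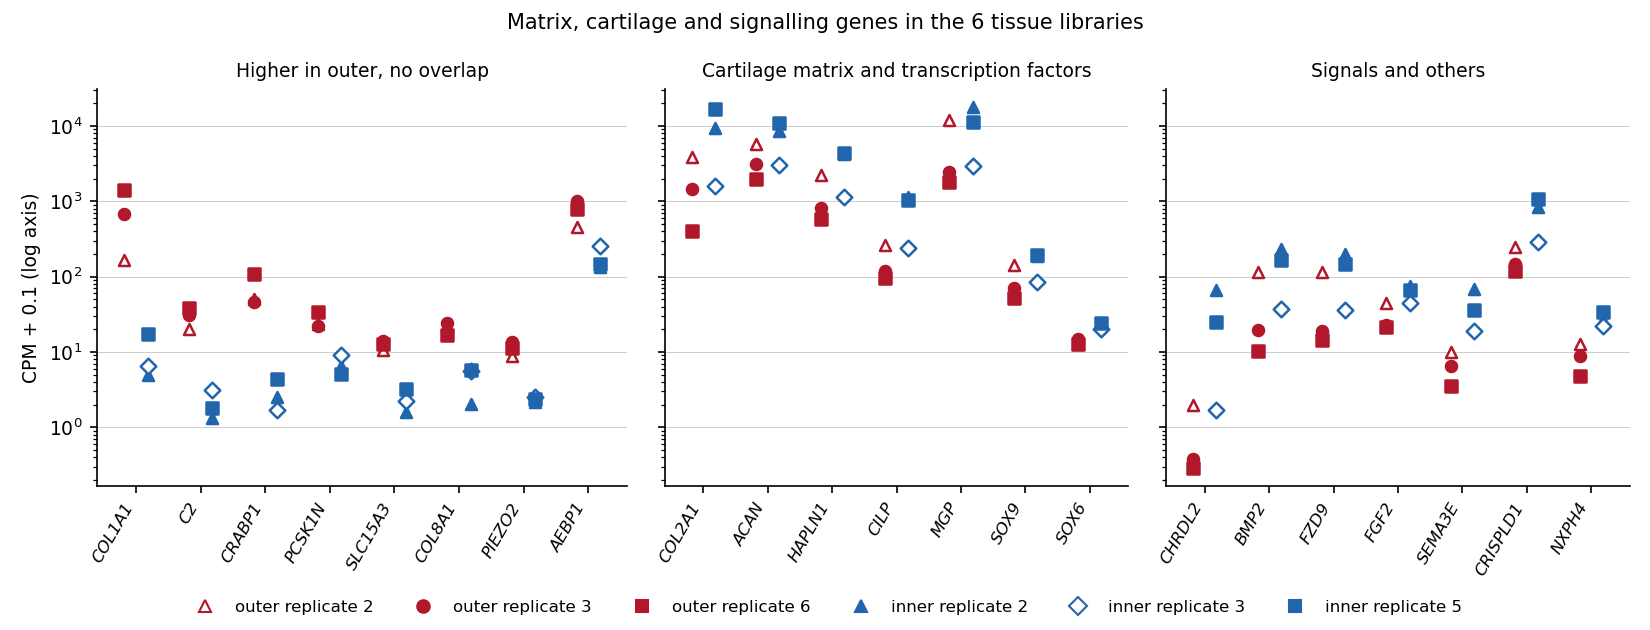
Levels of matrix, cartilage and signalling genes in each tissue library, as CPM plus 0.1 on a log axis, with outer libraries (red) left of inner libraries (blue) and open symbols for outer replicate 2 and inner replicate 3. The left panel holds genes whose zones do not overlap, such as C2 at 19.9 to 38.2 CPM in outer and 1.24 to 3.05 CPM in inner libraries, and in COL2A1, BMP2 and FZD9 the open symbols cross.

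The place of outer replicate 2 was then measured for each of the 363 genes called without it, as a fraction on the log2(CPM + 0.5) scale where 0 is the mean of the inner libraries and 1 the mean of outer replicates 3 and 6. The values of outer replicate 2 were not used to call these genes, though selection for a large gap between the other libraries lowers the fraction. Its median was 0.14 over the 363 genes, with quartiles of 0 and 0.31. It was at least 0.75 for 9 genes, 0.5 to 0.75 for 27, 0.25 to 0.5 for 89, 0 to 0.25 for 150 and below 0 for 88.

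Medians over lists are descriptions of these genes, and differences between lists were not tested. Where the inner libraries and outer replicate 2 are below 0.5 CPM, as for CDH5 and PLVAP or nearly so, the added 0.5 CPM holds the fraction near 0. Medians of lists with many such genes therefore cannot be set against those of lists with abundant genes. Median fractions were 0.03 for 18 endothelial genes, -0.03 for 4 genes of class II presentation, 0.06 for 10 myeloid genes and 0.19 for 9 mural genes. They were 0.28 for 5 basement membrane genes, 0.28 for 11 actin cytoskeleton genes, 0.41 for 4 fibrous collagens, 0.36 for 4 chemokines and cytokines, 0.15 for 3 genes of capsular and synovial fibroblasts, 0.10 for 14 vascular signals and 0.06 for 6 matrix proteases. Genes at the outer end, picked for that position, included COL8A1 at 1.05, HERC5 at 0.97, PCSK1N at 0.90, CRABP1 at 0.89, SLC15A3 at 0.87, C2 at 0.80 and PIEZO2 at 0.79, while COL1A1 was at 0.62 and PECAM1, the platelet and endothelial adhesion molecule, at 0.22.

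**Figure D4:**
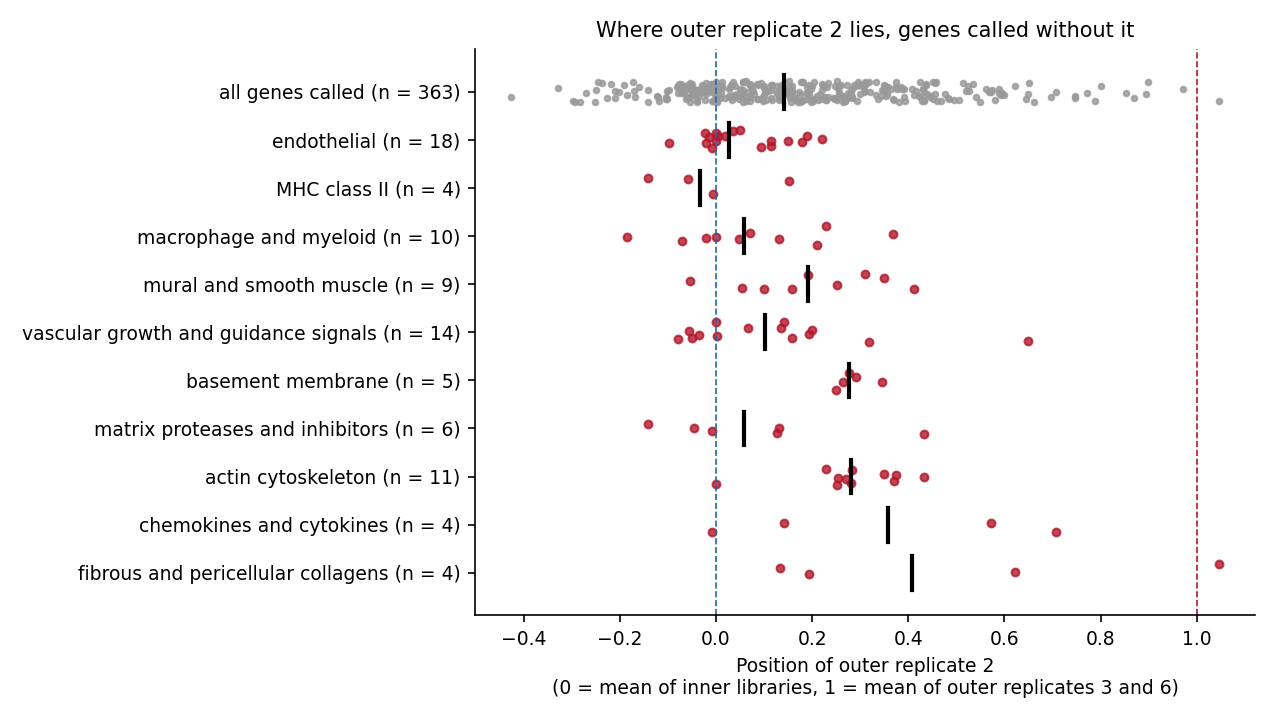
Position of outer replicate 2 between the inner libraries (0) and outer replicates 3 and 6 (1) for genes called without it, for all 363 genes and by list, where each point is a gene and black bars are medians. Points are moved vertically at random for sight, and genes in several lists are shown in each. Endothelial, class II and myeloid genes lie near 0 (medians of 0.03, -0.03 and 0.06) and fibrous collagens at a median of 0.41.

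The same contrast was available in cells of both zones after passaging, in libraries that share none of the samples above. Numbers 147 and 148 occur in both zones of these cells, which were fitted as unpaired. A model of the 11 meniscus libraries that also fits replicate number called 14 genes between the P3 zones. Between outer P3 cells (n = 2) and inner P3 cells (n = 3) edgeR called 0 of 15707 genes (0%), 505 genes had an unadjusted p under 0.05, and by DESeq2 10 genes passed (0.0637%), 8 higher (0.0509%) and 2 lower (0.0127%) in outer cells. Of the 343 genes called higher in outer tissue without outer replicate 2, 260 had a positive and 80 a negative log2 fold change in P3 cells with a median of 0.34, and of the 20 called lower 6 were positive and 14 negative with a median of -0.27. Over all genes tested 48.3% were positive and the median was 0. Genes are not independent replicates.

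C2 kept an outer excess in culture, with 62.0 and 51.9 CPM in outer P3 cells, against 6.71, 14.8 and 12.7 CPM in inner P3 cells (log2 fold change 2.32, adjusted p = 0.246). COL1A1 stood at 71737 and 81998 CPM in outer P3 cells, against 107937, 110523 and 97321 CPM in inner P3 cells (log2 fold change -0.45, adjusted p = 1). CRABP1 stood at 8.19 and 22.8 CPM in outer P3 cells, against 6.84, 15.9 and 21.3 CPM in inner P3 cells. The P3 zones were apart for C2, apart in the opposite direction to tissue for COL1A1 and overlapped for CRABP1. Endothelial genes other than ERG summed to 25.8 and 24.8 CPM in outer P3 cells and to 11.8 to 19.6 CPM in inner P3 cells.

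The difference between the zone effects in tissue and in P3 cells was tested as an interaction, and 0 genes (0%) were called, 1173 had an unadjusted p under 0.05, and DESeq2 gave 17 (0.108%), 14 with a positive (0.0891%) and 3 with a negative interaction (0.0191%). COL1A1 had an interaction of 6.76 ± 1.07 on the log2 scale (SE, adjusted p = 0.458) and C2 one of 1.58 ± 0.52 (SE, adjusted p = 0.639). For PECAM1 it was 3.89 ± 1.16 (SE, adjusted p = 0.622). Without outer replicate 2 edgeR called 15 genes for the interaction, and the model that also fits replicate number called 20.

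**Figure D5:**
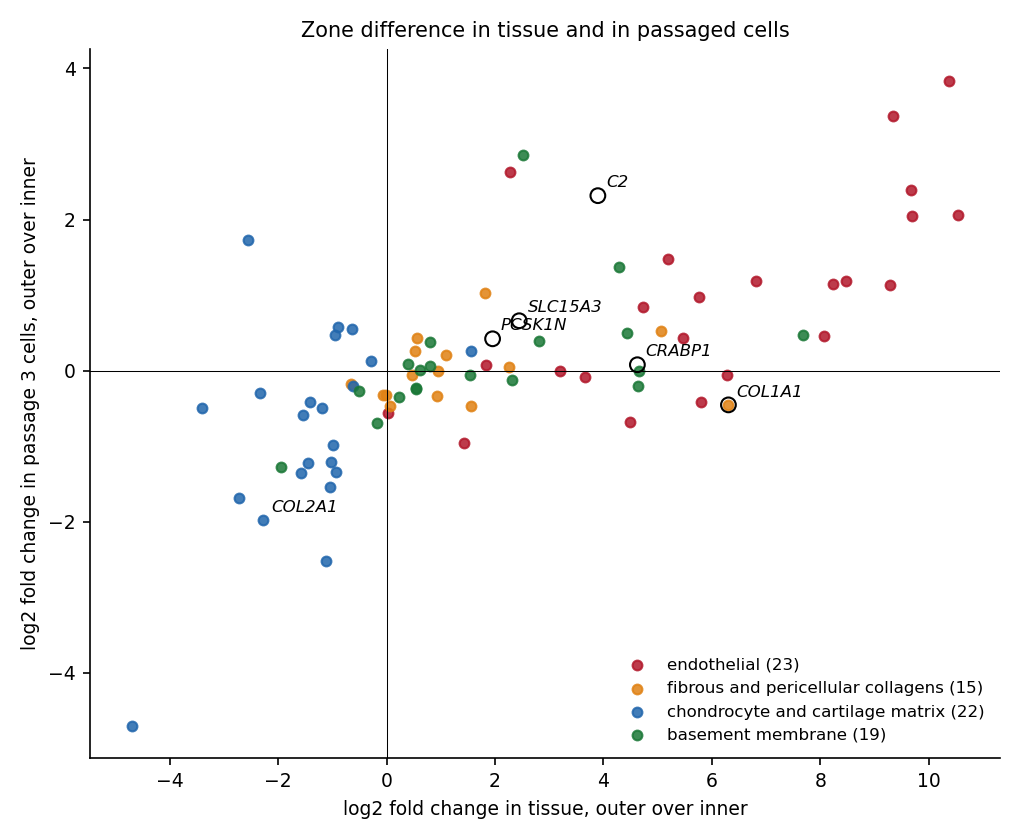
Log2 fold change of outer over inner zone in passaged cells against that in tissue, for genes of 4 lists, with the 5 genes called in tissue circled. Each point is a gene and lists are coloured as in the key. COL1A1 lies at 6.31 in tissue and -0.45 in P3 cells, and C2 at 3.90 and 2.32.

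Cartilage gave a further level for the genes of the inner side. COL2A1 averaged 47822 ± 24481 CPM in cartilage (SD, n = 3), CILP 1710.0 ± 685 CPM, CRISPLD1 940.4 ± 94.3 CPM, CHRDL2 154 ± 85.5 CPM and SEMA3E 80.3 ± 6.83 CPM. For COL2A1, CILP, CHRDL2 and SEMA3E the cartilage mean was above every meniscus tissue library of either zone. Of the outer genes, C2 averaged 0.478 ± 0.159 CPM in cartilage, below every meniscus tissue library, while COL1A1 averaged 135 ± 40.0 CPM, between the zones. CRABP1 averaged 27.6 ± 7.24 CPM there, also between the zones, and AEBP1 averaged 2620.1 ± 717 CPM, above every meniscus tissue library.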

How the data were processed

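The authors removed adapters with Trim Galore and cutadapt, mapped reads to Sscrofa11.1 by STAR, kept those with 1 genomic location and counted them by HTSeq, and the deposited table used here holds these raw counts per gene. Tool versions and how HTSeq treated strand are not given in the sources used here. The deposited tables of DESeq2-normalized counts were not used. Of 25880 genes 7608 had no reads, and the 15707 with at least 10 reads in total were tested. The table named 17624 genes, and a reference table named 1056 more.

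Fits used edgeR 4.0.16 in R 4.3.3 (TMM, glmQLFit, glmQLFTest) with a mean per group over all 14 libraries. Alternatives were median-of-ratios size factors, DESeq2 1.42.0, no filter, filterByExpr, only the libraries compared, glmTreat, an adjusted p under 0.05, each library left out and a replicate block. Those run without outer replicate 2, or without inner replicate 3 as well, were chosen after seeing the data. The fits were tested on simulated data. Members and lists were chosen with earlier results of these data known. Intervals cover counting error only, and reads are not independent molecules.

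Genes were named if called with all libraries, if among the 15 largest non-overlapping changes of at least 5 CPM or the 10 smallest p in each direction, if among the 6 most abundant members of a list, if a list member called with or without outer replicate 2, or if the study listed them as zone genes. SOX17, TAGLN, WIF1, BMP2, FZD9, FGF2, NKX3-2, S100A1, ADM and APLN fall outside this rule and were chosen after their values were seen. Promoters were read from the RefSeq genome of Sscrofa11.1.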

Additional observations from a re-analysis of the deposited data

How the results depend on the processing

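For outer over inner tissue, 5 genes were called with all libraries and with another scaling or filterByExpr, and 7 without a filter. DESeq2 called 353, an adjusted p under 0.05 gave 105, and 0 were called in a fit of the 6 tissue libraries or with glmTreat. Leaving out a library gave 0 to 363. Members of any list numbered 2 with all libraries, 124 with DESeq2, 43 at an adjusted p under 0.05, 0 with only the libraries compared or glmTreat, and 0 to 113 with a library left out. Without outer replicate 2, 363 were called, 1017 with DESeq2, 5 with only the libraries compared, 130 with glmTreat and 1156 at an adjusted p under 0.05, and 153 to 896 with a further library left out.

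DESeq2 called 10 genes between P3 cells, where edgeR called 0 in all settings run except the block, and 17 for the interaction, where leaving out a library gave 0 to 15.

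A replicate block over the 11 meniscus libraries called 89 genes in tissue (44 of them list members), 14 in P3 cells and 20 for the interaction. The zones of tissue share only the numbers 2 and 3, whose libraries correlated at 0.27 and 0.11 after removal of group means, and although each meniscus gave both zones, the sources used here do not say that a number marks a meniscus.

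Of the 151 genes whose values were recomputed, COL6A3, DCN, ERG, HSPG2 and RGS5, none of them called, changed sign, and the cause was not tested. With a library left out the log2 fold change ranged from -0.30 to 0.43 for COL6A3, from -0.15 to 0.11 for DCN, from -0.12 to 0.32 for ERG, from -0.25 to 0.49 for HSPG2 and from -1.96 to 0.67 for RGS5. With the replicate block it was 0.50 for COL6A3, -0.081 for ERG and 0.51 for RGS5. Low genes are limited by depth, since 3 reads correspond to 0.0724 to 0.122 CPM in a single library.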
